A study of Mus musculus with 11 samples.

Results

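The 39 protein-coding Hox genes of the 4 mouse Hox clusters were examined, taken from 56748 annotated genes as every protein-coding gene named Hox with a cluster letter from a to d and a number. They comprise 11 genes of the Hoxa cluster, 10 of Hoxb, 9 of Hoxc and 9 of Hoxd. On the build mm39 the Hoxa cluster spans chromosome 6 from 52132570 to 52237788 on the minus strand. The other clusters lie on the plus strand, Hoxb on chromosome 11 from 96085142 to 96259082, Hoxc on chromosome 15 from 102829538 to 102945278 and Hoxd on chromosome 2 from 74498654 to 74595486. Of the 39 genes, 36 had enough reads to be tested. The untested genes were Hoxb13, with 0 to 10 counts a library, Hoxc12, with 0 to 2 counts, and Hoxd12, with 41 counts in wild-type library 26 and 0 to 2 elsewhere.

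Hox genes encode homeodomain transcription factors that give cells their position along the head-to-tail axis. Within a cluster the genes are switched on in their order along the chromosome: the low-numbered (3′) genes come on first and reach farthest forward, and the high-numbered (5′) genes come on later and act farther back. Genes of the same number in different clusters are paralogues and form a paralogue group. In the tailbud, where the trunk is laid down from progenitors at the tail end, FGF, Wnt and retinoic acid signals and the Cdx factors feed into this sequence.

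The study asked how transcription in forming mesoderm depends on canonical signalling through Fgfr1, an FGF receptor, using mice whose receptor carries point mutations at residues that bind signalling effectors. PolyA RNA was sequenced from microdissected tailbuds of embryos at embryonic day 8.5, labelled as neuromesodermal progenitors with somitic and intermediate mesoderm. There were 4 wild-type libraries, 3 from homozygous Fgfr1 FCPG/FCPG and 4 from homozygous Fgfr1 FCSPG/FCSPG embryos, with no other allele or treatment in the labels. The labels do not say whether a library is a single embryo or a pool, so p-values measure the spread between these libraries, which may in part be technical. Libraries are called here by the number in their column name: 24, 25, 26 and 33 for wild type, 19, 45 and 46 for FCPG, and 13, 27, 30 and 32 for FCSPG. Library values below are always listed in that order.

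Library totals ran from 16014698 to 25453070 counts. All 11 libraries were deposited for the same tissue, but FCPG library 45 lay near 0 for several defining tailbud genes, with Cdx4 at 0.354 CPM, Wnt3a at 0.473, Fgf17 at 0 and Sox2 at 1.06, while T (Brachyury) was at 23.2. CPM is a gene's count scaled to a common library total with edgeR's TMM factors. The genes just named are part of a list of 8 progenitor and tailbud markers. That list summed to 94.9 CPM in library 45, against 668 to 1073 in wild type. All 15 genes of a visceral endoderm list, which covers the outer yolk sac layer, were detected and averaged higher in both mutants. Their summed level was 125 to 1105 CPM in wild type, 1570 to 16883 in FCPG, highest in library 45, and 783 to 3760 in FCSPG. FCPG libraries 19 and 45 and FCSPG library 32 were male by Xist and Y-linked counts and the other 8 were female. The part of visceral endoderm and of sex in the results below was not tested beyond the values given.

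In wild type, Hox RNA made up 0.131% to 0.243% of the counts, and the genes of paralogue groups 5 to 9, which pattern the trunk, held 53.7% to 75.2% of the summed level per kb. Divided by gene length, Hoxb9 had the highest wild-type level, 134 ± 63.9 CPM per kb (mean ± SD over 4 libraries). Hoxb8 at 54.0 ± 18.2, Hoxa7 at 53.0 ± 25.6 and Hoxc8 at 50.2 ± 29.2 CPM per kb followed. Hoxd9 led its own cluster at 30.1 ± 8.39 CPM per kb. Genes of group 1, the most 3′ of the Hoxa, Hoxb and Hoxd clusters, also ranked high, with Hoxb1 at 43.6 ± 6.81 and Hoxd1 at 29.8 ± 4.06 CPM per kb. Hoxb9 and Hoxb8 were the single pair of neighbours in this order whose library ranges did not overlap, and the ranges of the other 37 of 38 neighbouring pairs overlapped. The deposited FPKM gave the same order.

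The spread between wild-type libraries differed from gene to gene. Hoxb5 varied 1.24-fold between its lowest and highest wild-type library and Hoxd1 1.34-fold, whereas Hoxc10 varied 56.1-fold and Hoxd11 40.0-fold. Library 26 was the highest wild-type library for each of the 9 tested genes of groups 10 to 13, and their summed level there was 219 CPM per kb against 36.3, 16.1 and 28.6 in libraries 24, 25 and 33. Library 26 also stood apart in primitive blood markers, which summed to 3112 CPM against 287 to 596 in the other wild-type libraries, and had the lowest visceral endoderm sum, 125 CPM, and their part in its Hox levels was not tested. Library 33 was low in the Hoxc cluster, which made up 10.7% of its summed Hox level per kb against 21.2% to 30.6% in the other wild-type libraries.

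**Figure D1:**
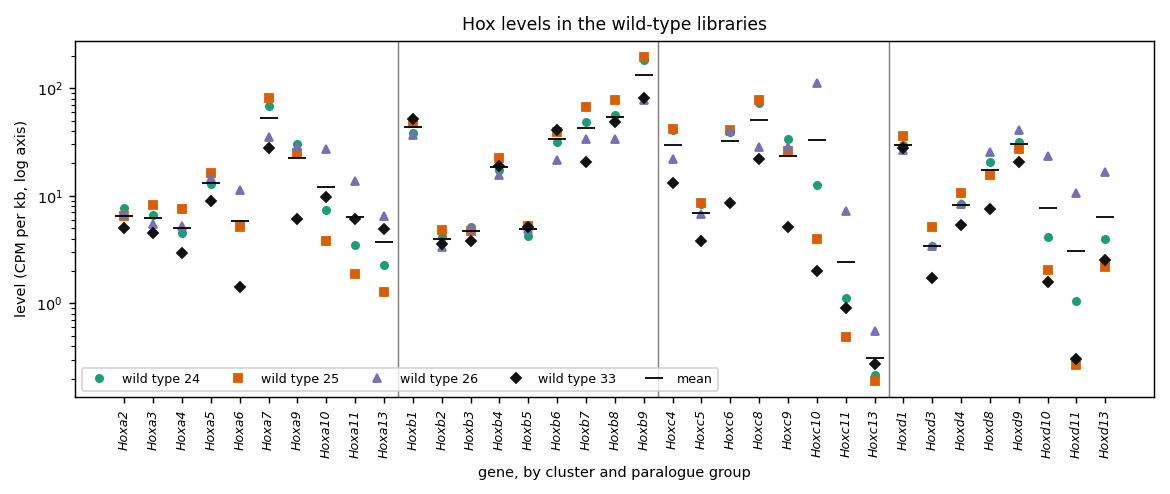
Level of tested Hox genes in the 4 wild-type libraries, in CPM per kb on a log axis, with genes along the horizontal axis by cluster and paralogue group, a symbol for each library and a dash for the mean. Hoxb9 has the highest mean at 134 CPM per kb, and library 26 (triangles) stands above the rest for the 9 genes of groups 10 to 13.

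Promoter windows of 300 bases, from 250 before to 50 after an annotated start, were available from RefSeq on GRCm38.p6 for 22 of the 39 genes (24 windows). The windows shown are of Hoxb1, which was above the wild-type range in 4 of 7 mutant libraries, and of Hoxa7, Hoxb8 and Hoxc4, which were below it in 5, 4 and 5 of the 7. They lie at chr11:96365508-96365807 on the plus strand for Hoxb1, chr6:52218524-52218823 on the minus strand for Hoxa7, chr11:96281655-96281954 on the plus strand for Hoxb8 and chr15:103034145-103034444 on the plus strand for Hoxc4. Capitals mark matches, on either strand, to the Cdx core TTTATG, the Hox and Pbx composite TGATNNAT, the retinoic acid receptor half-site AGGTCA or the TATA box TATAAA.
Hoxb1: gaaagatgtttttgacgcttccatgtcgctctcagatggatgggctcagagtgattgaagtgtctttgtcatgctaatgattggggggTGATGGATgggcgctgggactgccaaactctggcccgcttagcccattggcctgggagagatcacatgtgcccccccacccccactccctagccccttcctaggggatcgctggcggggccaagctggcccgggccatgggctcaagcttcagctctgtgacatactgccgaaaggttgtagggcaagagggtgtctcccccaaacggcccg
Hoxa7: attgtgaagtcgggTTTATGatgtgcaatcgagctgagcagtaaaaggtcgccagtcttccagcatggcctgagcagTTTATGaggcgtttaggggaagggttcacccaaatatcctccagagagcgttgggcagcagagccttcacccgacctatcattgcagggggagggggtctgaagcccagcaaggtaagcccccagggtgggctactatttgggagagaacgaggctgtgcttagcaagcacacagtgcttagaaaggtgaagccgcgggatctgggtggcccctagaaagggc
Hoxb8: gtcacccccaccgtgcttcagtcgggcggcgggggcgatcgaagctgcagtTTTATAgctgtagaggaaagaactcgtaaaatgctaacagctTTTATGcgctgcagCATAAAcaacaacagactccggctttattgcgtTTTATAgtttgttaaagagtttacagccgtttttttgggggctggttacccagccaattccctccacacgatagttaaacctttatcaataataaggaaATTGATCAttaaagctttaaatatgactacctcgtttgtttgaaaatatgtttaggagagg
Hoxc4: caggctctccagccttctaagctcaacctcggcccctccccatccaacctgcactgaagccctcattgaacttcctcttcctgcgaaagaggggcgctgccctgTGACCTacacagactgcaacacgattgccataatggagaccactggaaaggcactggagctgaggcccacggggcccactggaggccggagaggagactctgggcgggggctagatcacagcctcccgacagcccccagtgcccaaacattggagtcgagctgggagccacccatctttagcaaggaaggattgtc

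Hoxb1 holds a Hox and Pbx composite, Hoxa7 a pair of Cdx cores, Hoxb8 Cdx cores, TATA boxes and a composite, and Hoxc4 a retinoic acid receptor half-site. Of the windows not shown, some also held matches, such as that of Hoxd4 with Cdx cores, a half-site and a TATA box. Others held 0 matches to any of these motifs. Among them are those of Hoxa3, Hoxa6, Hoxa9 and Hoxd9, genes that also averaged lower in both mutants. The Cdx core was present in 5 of 24 Hox windows (20.8%) against 11.9% of all 32851 promoter windows. The composite was in 16.7% against 8.85%, the half-site in 29.2% against 16.3% and the TATA box in 16.7% against 13.6%. These matches describe the letters in the windows and are not evidence that a factor binds there.

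In FCPG tailbuds Hox RNA was lower nearly throughout the 4 clusters. The log2 fold change over wild type was below 0 for 35 of 36 tested genes, against 49.8% of all 16572 genes tested. The median was -1.68, against 0.00194 over all genes tested. After adjustment, edgeR's quasi-likelihood F test called none of the Hox genes and none of the 16572 (0% called), and the smallest adjusted p among Hox genes was 0.132. At an unadjusted p under 0.05, 14 Hox genes were lower, against 8.88% of all genes tested, and 0 were higher, against 13% of all genes. All 3 FCPG libraries lay below all 4 wild-type libraries for 14 genes, against 6.98% of all genes. Markers of several other cell types averaged lower beside the Hox genes. These were 8 of 8 for presomitic mesoderm (median log2 fold change -1.08), 6 of 7 for somites (-1.72), 6 of 6 for neural tube (-1.79) and 7 of 8 for primitive blood (-2.73). The summed presomitic level was 274 to 399.7 CPM in wild type and 40.3 to 313 in FCPG, and that of somites was 239 to 338 and 51.5 to 576. The neural tube sum was 52.8 to 159 in wild type and 12.8 to 109 in FCPG, and the primitive blood sum was 287 to 3112 and 54.1 to 216. Markers of the epiblast and primitive streak went the other way, higher for 7 of 8 (median 1.55). Their sum was 85.2 to 303.5 CPM in wild type and 335 to 491 in FCPG. Lateral plate and allantois markers averaged higher for 4 of 7 (0.37). Progenitor and tailbud markers averaged lower for 6 of 8 (-0.80) and intermediate mesoderm markers for 4 of 6 (-1.05). The part of these markers in the Hox levels was not tested. In bulk tissue, fewer cells that express a gene and less of its RNA per cell cannot be told apart.

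The Hoxc cluster had the lowest median, -3.00 on the log2 scale, followed by Hoxd at -1.93, Hoxa at -1.58 and Hoxb at -1.07. By paralogue group the median was -1.58 for groups 2 to 4, -2.45 for groups 5 to 9 and -1.52 for groups 10 to 13. Both orders changed when single libraries were left out. Without FCPG library 19 the medians were -2.80 for Hoxc, -2.29 for Hoxa, -1.86 for Hoxb and -1.65 for Hoxd. Those of the same classes were then -2.64, -2.29 and -0.92, so groups 2 to 4 were lowest. Without wild-type library 26 Hoxd was at -1.21, nearer 0 than Hoxa at -1.56. Without FCPG library 45 the median over all 36 genes was -1.16 and those of the same classes were -1.12, -1.90 and -0.95. There, 8 genes were lower at an unadjusted p under 0.05 (5.03% of all genes), and 14 did not overlap wild type (9.41% of all genes).

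**Figure D2:**
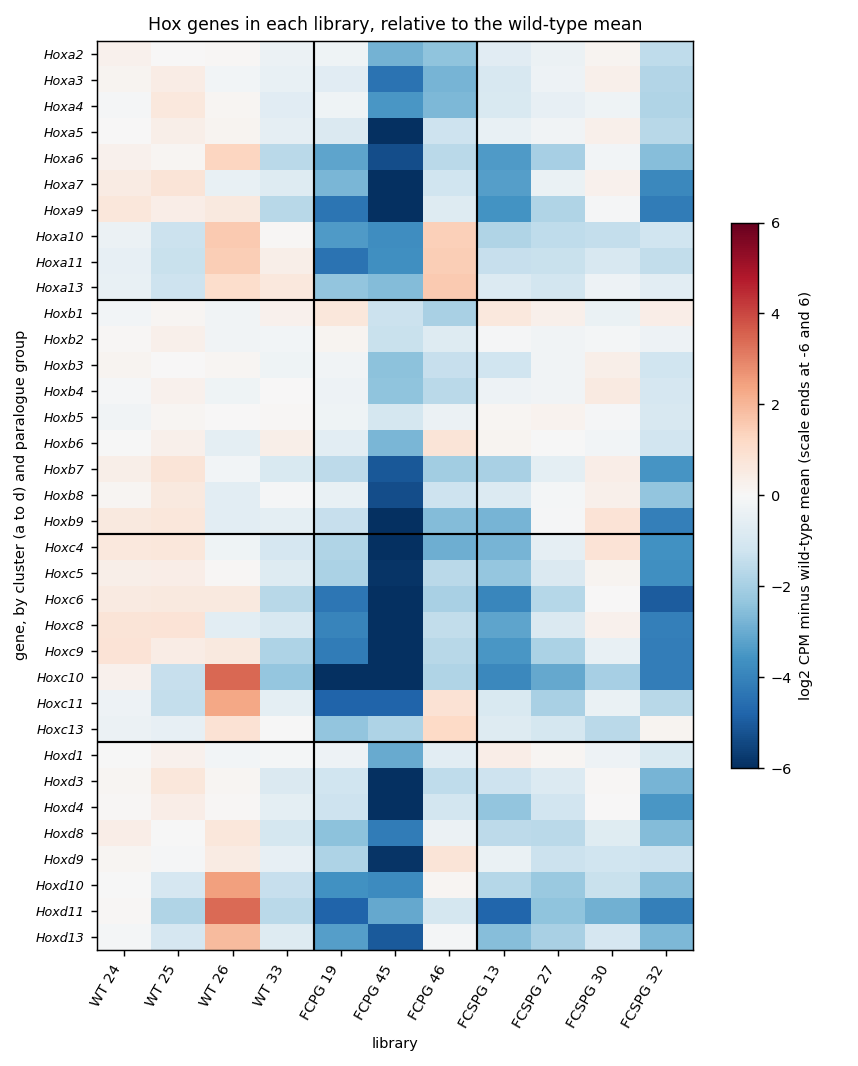
Tested Hox genes (vertical axis, by cluster and paralogue group) in each of the 11 libraries (horizontal axis), coloured by log2 CPM minus the wild-type mean, on a scale that ends at 6 log2 units in either direction. FCPG library 45 is below the wild-type mean for every gene shown, and wild-type library 26 is high for groups 10 to 13.

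Hoxb1 and Hoxd1 are genes of group 1, which pattern the hindbrain and include early retinoic acid targets. Hoxb1 stood at 89.9, 109, 86.2 and 119 CPM in wild type, at 159, 41.4 and 25.9 in FCPG and at 156, 124, 76.4 and 134 in FCSPG. Hoxd1 stood at 54.7, 66.5, 49.7 and 51.4 CPM in wild type, at 44.0, 6.68 and 36.0 in FCPG and at 73.1, 60.1, 45.2 and 29.2 in FCSPG. FCPG library 19 was above every wild-type library for Hoxb1 and below every one for Hoxd1, while libraries 45 and 46 were below every wild-type library for both. The log2 fold changes in FCPG were -0.43 ± 0.49 (SE) for Hoxb1 and -0.94 ± 0.49 for Hoxd1, with edgeR adjusted p of 0.644 and 0.287. Without library 19 the log2 fold change of Hoxb1 was -1.60.

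Genes of groups 2 to 4 pattern the hindbrain, the pharyngeal arches and the neck. Hoxa3, needed for the thymus and parathyroid, and Hoxb4, a cervical vertebra gene also used in blood stem cells, had the smallest p-values of this class. The Hoxa3 level was 40.0, 49.1, 32.6 and 27.0 CPM in wild type, 22.6, 1.59 and 5.22 in FCPG and 18.4, 29.5, 44.5 and 10.8 in FCSPG. The Hoxb4 level was 45.0, 57.1, 39.7 and 48.2 CPM in wild type, 37.7, 8.86 and 15.2 in FCPG and 38.7, 40.8, 67.5 and 23.1 in FCSPG. All 3 FCPG libraries were below the 4 wild-type libraries for both genes. Hoxa3 averaged 9.80 ± 11.2 CPM (SD, n = 3) in FCPG against 37.2 ± 9.60 (n = 4) in wild type, a log2 fold change of -1.92 ± 0.72, and Hoxb4 averaged 20.6 ± 15.1 against 47.5 ± 7.29, a change of -1.20 ± 0.45. The edgeR adjusted p was 0.165 for Hoxa3 and 0.163 for Hoxb4.

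Hoxa2, which sets the identity of the second pharyngeal arch, and Hoxc4, the most 3′ gene of its cluster, belong to the same class. For Hoxa2 the libraries gave 13.8, 11.6, 12.1 and 8.95 CPM in wild type, 9.60, 1.54 and 2.07 in FCPG and 7.11, 8.95, 13 and 3.93 in FCSPG. For Hoxc4 the libraries gave 105, 108, 55.9 and 33.5 CPM in wild type, 19.3, 0 and 8.75 in FCPG and 9.69, 46.9, 119 and 5.39 in FCSPG. FCPG libraries 45 and 46 were below wild type for both genes, whereas library 19 reached the wild-type range for Hoxa2 and stayed below it for Hoxc4. The log2 fold change was -1.39 ± 0.59 for Hoxa2 and -3.01 ± 1.25 for Hoxc4 (adjusted p = 0.199 and 0.196, edgeR). The other 5 genes of the class also averaged lower in FCPG. Hoxa4 ranged from 4.66 to 12 CPM in wild type, from 0.591 to 6.28 in FCPG and from 2.12 to 6.25 in FCSPG, with log2 fold changes of -1.58 ± 0.69 and -0.87 ± 0.61. Hoxb2 ranged from 11.7 to 16.9 CPM in wild type, from 5.32 to 15.5 in FCPG and from 11.2 to 13.2 in FCSPG, with log2 fold changes of -0.54 ± 0.31 and -0.18 ± 0.28. Hoxb3 ranged from 16.2 to 21.7 CPM in wild type, from 3.49 to 17.3 in FCPG and from 8.43 to 25.4 in FCSPG, with log2 fold changes of -1.07 ± 0.51 and -0.42 ± 0.46. Hoxb2 and Hoxb3, hindbrain genes, had the smaller differences of these. Hoxd3 ranged from 7.19 to 21.5 CPM in wild type, from 0 to 5.80 in FCPG and from 1.86 to 13.9 in FCSPG, with log2 fold changes of -2.04 ± 0.96 and -0.99 ± 0.83. Hoxd4 ranged from 15.7 to 31.5 CPM in wild type, from 0.118 to 10.8 in FCPG and from 2.02 to 23.7 in FCSPG, with log2 fold changes of -1.81 ± 0.98 and -1.24 ± 0.87. For Hoxd3 and Hoxd4, which act on the vertebrae of the neck, no FCPG library reached the wild-type range.

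FCPG library 19 decided whether the 3′ genes passed the test. With it left out, 8 Hox genes were called lower in FCPG at an adjusted p under 0.05 (edgeR). Among them were Hoxa2, Hoxa3, Hoxa4, Hoxb1, Hoxb2, Hoxb3 and Hoxb4, at adjusted p between 0.00909 and 0.0307. Over all genes 6.14% were then called lower. Among the female libraries alone, where FCPG is library 46, Hoxa2 was called lower (0.269% of all genes). No gene of groups 5 to 13 and none of the Hoxc or Hoxd clusters was among the 8. Library 19 was male, as was library 45.

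Genes of groups 5 to 9 pattern the thorax and its spinal cord, and 15 of 15 tested members averaged lower in FCPG. Hoxb7 and Hoxc8, which act on thoracic vertebrae and, for Hoxc8, on motor neurons of the forelimb region, were each below the wild-type range in all 3 FCPG libraries. Hoxb7 stood at 75.4, 102, 52.6 and 31.5 CPM in wild type, at 20.3, 1.65 and 13.9 in FCPG and at 15.5, 39.7, 79.1 and 5.09 in FCSPG. Hoxc8 stood at 207, 219.8, 80.1 and 62.1 CPM in wild type, at 7.76, 1.59 and 44.1 in FCPG and at 13.6, 66.9, 145 and 7.15 in FCSPG. In FCPG Hoxb7 averaged 11.9 ± 9.45 CPM against 65.4 ± 30.4 in wild type, a log2 fold change of -2.45 ± 0.92, and Hoxc8 averaged 17.8 ± 23.0 against 142 ± 82.7, a change of -3.00 ± 1.18. The edgeR adjusted p was 0.163 for Hoxb7 and 0.177 for Hoxc8.

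Hoxa6 and Hoxc9 had larger fold changes at lower levels. The Hoxa6 level was 4.81, 4.46, 9.96 and 1.24 CPM in wild type, 0.369, 0 and 1.28 in FCPG and 0.299, 0.952, 3.58 and 0.605 in FCSPG. The Hoxc9 level was 81.4, 63.1, 69.6 and 12.5 CPM in wild type, 2.43, 0.118 and 14.3 in FCPG and 3.95, 12.4, 34.1 and 2.47 in FCSPG. For both genes 1 FCPG library, 46, was just above the lowest wild-type library, 33, so the groups overlapped. The log2 fold change was -3.22 ± 1.12 for Hoxa6 and -3.34 ± 1.23 for Hoxc9, with edgeR adjusted p of 0.140 and 0.157.

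Hoxb9, Hoxa7 and Hoxd9, which had the highest wild-type level per kb of their clusters, averaged lower in FCPG too. For Hoxb9 the libraries gave 471, 503, 199.6 and 207 CPM in wild type, 119.6, 0.768 and 51.5 in FCPG and 45.8, 297, 559 and 17.9 in FCSPG. For Hoxa7 the libraries gave 196, 233, 101 and 80.1 CPM in wild type, 20.5, 0.768 and 61.0 in FCPG and 14, 105, 167 and 9.52 in FCSPG. For Hoxd9 the libraries gave 67.8, 58.5, 86.9 and 44.1 CPM in wild type, 17.4, 0.945 and 106 in FCPG and 47.9, 25.4, 26.8 and 26.2 in FCSPG. All FCPG libraries were below wild type for Hoxb9 and Hoxa7, while library 46 was above every wild-type library for Hoxd9, which like the other group 9 genes acts on the ribs. The log2 fold changes were -2.59 ± 1.30 for Hoxb9, -2.48 ± 1.18 for Hoxa7 and -0.64 ± 0.90 for Hoxd9, at edgeR adjusted p of 0.268, 0.248 and 0.714. 

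Of the other genes of this class, those of Hoxb differed least from wild type in FCPG. Hoxb5 ranged from 11.9 to 14.7 CPM in wild type, from 6.38 to 11.4 in FCPG and from 6.90 to 16 in FCSPG, with log2 fold changes of -0.52 ± 0.29 and -0.12 ± 0.26. Hoxb6 ranged from 42.0 to 80.9 CPM in wild type, from 9.57 to 109 in FCPG and from 29.1 to 71.3 in FCSPG, with log2 fold changes of -0.31 ± 0.59 and -0.25 ± 0.54. Hoxb8 ranged from 88.2 to 204 CPM in wild type, from 3.31 to 100.4 in FCPG and from 26.0 to 169 in FCSPG, with log2 fold changes of -1.40 ± 0.83 and -0.51 ± 0.74. FCPG library 46 was above every wild-type library for Hoxb6, and all FCPG libraries but 19 were below wild type for Hoxb8. Hoxa5 ranged from 16.7 to 30.3 CPM in wild type, from 0.0591 to 13.2 in FCPG and from 7.51 to 29.5 in FCSPG, with log2 fold changes of -1.67 ± 0.87 and -0.39 ± 0.76. Hoxa9 ranged from 33.8 to 169 CPM in wild type, from 0.414 to 62.9 in FCPG and from 5.64 to 100.4 in FCSPG, with log2 fold changes of -2.46 ± 1.32 and -1.79 ± 1.15. Hoxa5, a gene of the lung and the neck to thorax boundary, was below wild type in all 3 FCPG libraries. Hoxc5 ranged from 11.7 to 26.3 CPM in wild type, from 0.236 to 6.56 in FCPG and from 1.46 to 22.4 in FCSPG, with log2 fold changes of -2.39 ± 0.96 and -1.12 ± 0.82. Hoxc6 ranged from 20.7 to 97.4 CPM in wild type, from 0 to 17.2 in FCPG and from 1.96 to 67.1 in FCSPG, with log2 fold changes of -3.51 ± 1.39 and -1.72 ± 1.14. Both Hoxc genes, which act on the forelimb and upper thorax, were below wild type in all 3 FCPG libraries.

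Genes of groups 10 to 13 are the most 5′ genes, which pattern the lumbar, sacral and tail regions, the limbs and the hindgut. Hoxc10 stood at 23.8, 7.56, 215 and 3.83 CPM in wild type, at 0.211, 0 and 5.59 in FCPG and at 1.26, 2.28, 4.91 and 1.01 in FCSPG. Hoxd11 stood at 4.44, 1.13, 45.1 and 1.29 CPM in wild type, at 0.0528, 0.414 and 2.00 in FCPG and at 0.0598, 0.714, 0.480 and 0.151 in FCSPG. Wild-type library 26 was far above every other library for both genes. Against the other wild-type libraries, FCPG library 46 was within the range for both and FCSPG library 30 for Hoxc10. The log2 fold change in FCPG was -5.03 ± 1.67 for Hoxc10, a lumbar gene, and -3.99 ± 1.47 for Hoxd11, a gene of the sacrum, forearm and kidney (adjusted p = 0.132 and 0.159, edgeR). Both turned positive, to 0.27 and 0.94, when the visceral endoderm score of each library was added to the fit.

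Hoxa11 ranged from 4.32 to 31.3 CPM in wild type, from 0.422 to 30.7 in FCPG and from 3.88 to 5.61 in FCSPG, with log2 fold changes of -0.44 ± 1.10 and -1.68 ± 1.04. Hoxc11 ranged from 0.986 to 14.5 CPM in wild type, from 0 to 5.16 in FCPG and from 0.666 to 2.08 in FCSPG, with log2 fold changes of -1.52 ± 1.38 and -1.98 ± 1.27. The wild-type maximum of each was library 26, and the FCPG maximum was library 46.

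The lower averages of this class depended on single libraries. Without wild-type library 26 the median FCPG log2 fold change over the 9 genes was 0.030, with 4 of 9 below 0, and 9 of all 36 Hox genes were lower at an unadjusted p under 0.05 (5.57% of all genes). Without FCPG library 46 it was -4.63, with all 9 genes below the wild-type range, against 12% of all genes. The Hoxa10 level was 24.2, 12.5, 89.7 and 32.1 CPM in wild type, 2.85, 2.19 and 81.8 in FCPG and 8.67, 10.6, 11.3 and 13.3 in FCSPG. The Hoxa13 level was 5.50, 3.05, 15.4 and 11.8 CPM in wild type, 1.37, 1.12 and 22.1 in FCPG and 4.24, 3.43, 6.09 and 4.84 in FCSPG. The Hoxc13 level was 0.529, 0.469, 1.36 and 0.673 CPM in wild type, 0.0528, 0.118 and 1.70 in FCPG and 0.359, 0.285, 0.160 and 0.806 in FCSPG. FCPG library 46 was second to wild-type library 26 for Hoxa10 and was above every wild-type library for Hoxa13, a digit and hindgut gene, and for Hoxc13, a hair and nail gene. It also had the highest levels of the lateral plate and allantois genes Hand1 (622 CPM) and Tbx4 (374 CPM), against 87.8 to 221 and 25.3 to 154 CPM in wild type, and their part in these levels was not tested.

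In FCSPG tailbuds most Hox genes also averaged lower than in wild type, with the median nearest 0 in the Hoxb cluster. The comparison uses the same wild-type libraries as that of FCPG, so they are not independent. The log2 fold change was below 0 for 34 of 36 genes, against 50.1% of all genes tested, with a median of -0.97 against -0.000604 over all genes. None passed the adjusted test (0% called over all genes, smallest adjusted p among Hox genes 0.446, edgeR). At an unadjusted p under 0.05, 5 genes were lower (4.76% of all genes) and 0 higher (6.24%), and 2, Hoxd11 and Hoxd13, did not overlap wild type (3.35% of all genes). The median was -0.25 for the Hoxb cluster, -0.94 for Hoxa, -1.42 for Hoxd and -1.51 for Hoxc. By class it was -0.53 for groups 2 to 4, -1.05 for groups 5 to 9 and -1.98 for groups 10 to 13. Presomitic mesoderm markers averaged lower for 8 of 8 genes (median -1.11) and primitive blood markers for 6 of 8 (-1.92), against 3 of 6 for neural tube. Epiblast and primitive streak markers averaged higher for 6 of 8 (1.02). Progenitor and tailbud markers averaged higher for 5 of 8 (0.28). Those of somites averaged lower for 6 of 7 (-0.65) and those of intermediate mesoderm for 4 of 6 (-0.60). The part of these markers was not tested. Leaving out FCSPG library 30 moved the median over the 36 genes to -1.61.

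Of the 5 genes lower at an unadjusted p under 0.05, 4 are Hoxd genes. For Hoxd10 the libraries gave 7.50, 3.71, 42.4 and 2.85 CPM in wild type, 0.528, 0.473 and 8.26 in FCPG and 2.27, 1.57, 2.94 and 1.21 in FCSPG. For Hoxd13 the libraries gave 9.94, 5.40, 41.1 and 6.31 CPM in wild type, 1.00, 0.236 and 10.1 in FCPG and 1.79, 2.71, 5.34 and 1.61 in FCSPG. For Hoxd8 the libraries gave 56.3, 42.6, 70.4 and 20.9 CPM in wild type, 7.81, 2.30 and 33.8 in FCPG and 14.8, 14.3, 26.5 and 7.15 in FCSPG. All 4 FCSPG libraries were below wild type for Hoxd13, which acts on digits and the end of the axis, and 1 library overlapped for Hoxd10 and for Hoxd8. In FCSPG Hoxd11 had a log2 fold change of -5.16 ± 1.40, Hoxc10 -4.72 ± 1.44, Hoxd10 -2.83 ± 1.05, Hoxd13 -2.45 ± 0.98 and Hoxd8 -1.60 ± 0.68, each with an edgeR adjusted p of 0.446. Hoxa6, Hoxc9 and Hoxa10, next by p, had log2 fold changes of -1.91 ± 0.92, -2.10 ± 1.03 and -1.85 ± 0.98. Without wild-type library 26 the median of groups 10 to 13 was -1.06, with 9 of 9 below 0, and that of groups 5 to 9 was -1.12, so the order of these classes turned. There, 1 Hox gene was lower at an unadjusted p under 0.05 (1.45% of all genes).

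At the 3′ end in FCSPG, Hoxb1 differed by 0.27 ± 0.45 and Hoxd1 by -0.10 ± 0.44, both less than their SE. The Hoxb genes from Hoxb2 to Hoxb6 had log2 fold changes between -0.42 and -0.12.

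The mutant libraries differed among themselves. Library 30 was within the wild-type range for 25 of 36 genes, below it for 7 and above it for 4 (Hoxb3, Hoxb4, Hoxb9 and Hoxc4). Library 32 was below every wild-type library for 31 genes. Libraries 13 and 27 were below for 26 and 17 genes. Over all genes tested, the share below every wild-type library was 16.2% in library 30, 26.9% in 32, 32.4% in 13 and 22.8% in 27. In FCPG, library 45 was below for 36 of 36 genes, library 19 for 29 and library 46 for 21, against 35.9%, 22.9% and 30.9% of all genes.

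Compared directly, FCSPG lay above FCPG for 27 of 36 Hox genes and below it for 9, against 50.8% of all genes below, with a median log2 difference of 0.70 against -0.00783 over all genes. None passed the adjusted test (0% called). Hoxb4 alone was higher at an unadjusted p under 0.05 (4.77% of all genes) and 0 were lower (6.67%), at 1.05 ± 0.45 with an edgeR adjusted p of 0.435. The genes next by p were Hoxa3 at 1.39 ± 0.71, Hoxc4 at 2.27 ± 1.21, Hoxb7 at 1.54 ± 0.89, Hoxd1 at 0.84 ± 0.49, Hoxb9 at 2.00 ± 1.26, Hoxa2 at 0.90 ± 0.58 and Hoxc8 at 1.71 ± 1.12. No Hox gene had library values that did not overlap between the mutants, where 2.33% of all genes did so lower and 2.34% higher. By class the median was 0.90 for groups 2 to 4, 1.27 for groups 5 to 9 and -0.62 for groups 10 to 13. Without FCPG library 45 the median over 36 genes was 0.25, and without FCPG library 46 it was 1.72. Without FCPG library 19, 6 genes were called higher in FCSPG (3.22% of all genes), among them Hoxa2, Hoxa3, Hoxa4, Hoxb1 and Hoxb4.

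The place of a gene in its cluster was set beside its fold change. In FCSPG the Spearman correlation of log2 fold change with paralogue group was -0.69 in Hoxa (11 genes), -0.75 in Hoxb (9 genes), -0.40 in Hoxc (8 genes) and -0.86 in Hoxd (8 genes). In FCPG it was 0.055, -0.63, 0.33 and -0.60 in the same clusters. These correlations are across genes that share the same libraries and are given as descriptions. In FCPG the 5′ ends of Hoxa and Hoxc came back toward 0, with -0.13 ± 0.88 for Hoxa13 and -0.31 ± 0.92 for Hoxc13, and FCPG library 46 is the library that was high there.

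**Figure D3:**
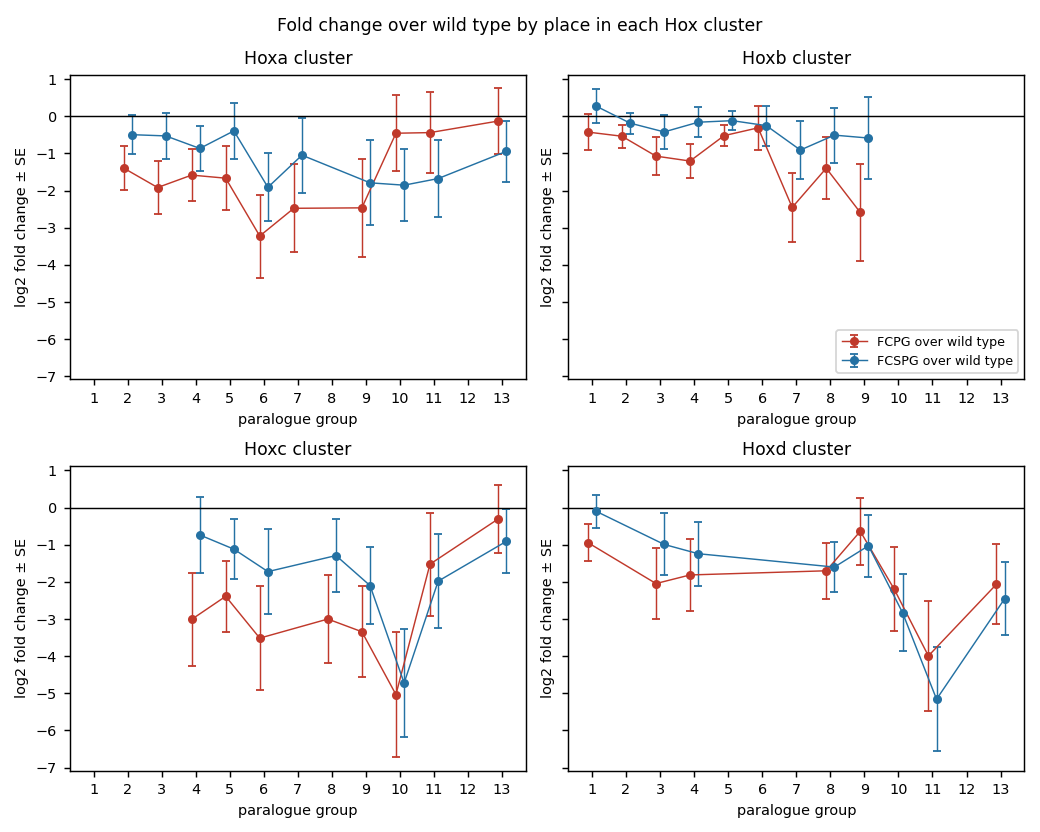
Log2 fold change over wild type (vertical axis, with SE from edgeR) by paralogue group (horizontal axis) in each of the 4 clusters, red for FCPG and blue for FCSPG. FCPG lies below FCSPG for each gene shown of groups 1 to 9 but Hoxd9, and the lowest values are Hoxc10 and Hoxd11 in both mutants.

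Summed levels per kb were set beside each other by class in each library. Groups 5 to 9 summed to 647, 707, 431 and 308 CPM per kb in wild type, to 156, 12.1 and 242 in FCPG and to 153, 339, 584 and 66.1 in FCSPG. All FCPG libraries were below wild type for groups 5 to 9, while 2 of 4 FCSPG libraries, 27 and 30, were within the wild-type range.

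The wild-type library with the lowest sum of groups 5 to 9, 33, also had the highest summed visceral endoderm level of wild type, 1105 CPM. FCSPG library 30, with the highest mutant sum, had the lowest visceral endoderm level of the mutants, 783 CPM. FCPG library 46 had a sum of 242 CPM per kb beside a visceral endoderm level of 4410 CPM. The Hoxc cluster supplied 3.74%, 1.53% and 11.1% of the summed Hox level per kb in FCPG and 3.90%, 11.2%, 18.9% and 3.37% in FCSPG, against 10.7% to 30.6% in wild type.

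**Figure D4:**
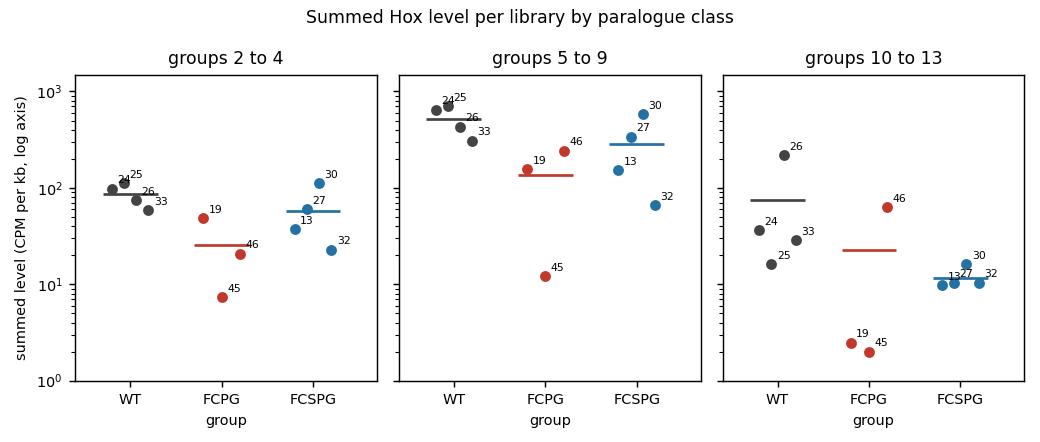
Summed level of the Hox genes in classes of paralogue groups from 2 to 13 (panels), in CPM per kb on a log axis, for each library (points with library numbers) of wild type, FCPG and FCSPG, with bars at the group means. FCPG library 45 is the lowest library in all 3 panels, whereas FCPG library 46 is second to wild-type library 26 in groups 10 to 13.

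Genes that work with or above the Hox genes were examined from 4 lists. Of 9 Hox cofactors of the Pbx and Meis families and their relatives, 8 averaged lower in FCPG (median -0.30) and 7 in FCSPG (median -0.091), and 1, Meis1, was lower at an unadjusted p under 0.05, in FCPG, where 8.88% of all genes were. Meis1 was at 54.0, 62.0, 61.3 and 44.8 CPM in wild type, 47.7, 25.3 and 10.4 in FCPG and 32.4, 54.1, 64.8 and 38.9 in FCSPG. The 12 tailbud inputs, which include the Cdx factors, FGF and Wnt ligands and Gdf11, had medians of -0.20 and 0.37. In FCPG 3 of them, T, Gdf11 and Lin28b, were lower at an unadjusted p under 0.05 (8.88% of all genes), and in FCSPG Gdf11 was lower (4.76% of all genes) and Fgf4 and Lin28a higher (6.24%) at that level. None passed the adjusted test in either mutant. The 10 retinoic acid genes had medians of -0.27 and 0.19, and 22 Polycomb and Trithorax genes, which keep Hox genes off and on, had medians of -0.015 and -0.051.

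Among these inputs, Gdf11, the ligand that sets the switch from trunk to tail, and the Cdx genes bear most directly on the cluster order. Gdf11 was at 69.2, 57.7, 77.6 and 28.2 CPM in wild type, 25.7, 4.96 and 14.1 in FCPG and 21.2, 27.5, 46.4 and 16.7 in FCSPG. Cdx4 was at 263, 232, 170.5 and 246 CPM in wild type, 151, 0.354 and 107 in FCPG and 87.8, 203, 199.7 and 40.5 in FCSPG. Cdx1 was at 36.0, 71.5, 7.16 and 257 CPM in wild type, 481, 1.54 and 41.2 in FCPG and 471, 324, 83.4 and 257 in FCSPG. All FCPG libraries were below wild type for Gdf11 and Cdx4, and in FCSPG 1 library for Gdf11 and 2 for Cdx4 were within the wild-type range. For Cdx1 the groups overlapped, and FCPG library 19 and FCSPG libraries 13 and 27 were above every wild-type library, with FCSPG library 32 level with the highest one. The part of these inputs in the Hox levels was not tested.

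The authors' deposited tables list genes with an unadjusted p under 0.05 from DESeq2 fits of the groups in pairs. The authors' deposited table of FCPG lists 15 Hox genes, all lower, with 3 at an adjusted p under 0.05: Hoxb7 (0.00675), Hoxa6 (0.0122) and Hoxc5 (0.0204). The authors' deposited table of FCSPG lists 13, of which 12 were lower, with Hoxd8 (0.00532), Hoxd9 (0.00902), Hoxc10 (0.0106) and Hoxa11 (0.0192) at an adjusted p under 0.05. The authors' deposited table of the 2 mutants lists 1, Hoxb4, at an adjusted p of 0.886. The share of all genes listed or called by the authors is not given here, so these counts lack a background. DESeq2 fitted here to all 11 libraries called Hoxc10 and Hoxa6 lower in FCPG (2.28% of all genes lower) and Hoxd11 lower in FCSPG (0.12%).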

How the data were processed

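Polyadenylated RNA of 11 tailbud libraries was measured by RNA sequencing (stranded mRNA libraries, per the labels). Per the submitters' processing notes, the authors used HISAT2, the build mm39 and featureCounts. No versions or counting options are given in the sources used here and whether strand was used is not stated, so overlapping and antisense genes inside the clusters are uncertain. The deposited count table holds whole counts for 56748 genes, and the deposited FPKM table was used only to check the order of levels. The authors also deposited log2 fold changes with p-values, for which the submitters' processing notes name DESeq2. They were turned here to the second group over the first.

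Libraries were grouped by the genotype in the column names, with 0 columns left over. The column numbers are not the replicate numbers of the sample titles. Counts were fitted with edgeR 4.0.16 (quasi-likelihood F test, two-sided, TMM scaling, filterByExpr) in R 4.3.3, with 1 term for the 3 groups. The filter kept 16572 genes. Benjamini-Hochberg adjustment ran over all of them, and calls were made at 0.05. Log2 CPM used a prior count of 2, and levels per kb divide CPM by the deposited gene length. Depth ran from 16014698 to 25453070 counts, and the fitted variation between libraries (a coefficient of 0.325) sets the precision. The fit was tested on simulated data. Alternatives were DESeq2 1.42.0, DESeq2 size factors, limma-voom (limma 3.58.1), other filters on low counts, only the groups compared, sex or visceral endoderm score as a covariate, female libraries alone, and each library left out. Values in every library are given for the tested gene with the highest level per kb and the first and last tested gene of each cluster, and for the 8 genes with the smallest p in each comparison. Hoxc5, Hoxa11, Hoxd12 and other genes named by count were chosen after their values were seen. Some genes under this rule or in the lists are not reported here. The members, the gene lists and the alternatives were chosen with earlier results of these data known. Tables of protein sequences were not used here.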

Additional observations from a re-analysis of the deposited data

Results flagged for a closer look

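The 72 sets of library values examined were 36 genes in the 4 wild-type and in the 4 FCSPG libraries. Of these, 7 held a library far from the other 3. Chance gives about 1 in 20 for normally distributed values, a shape that unlogged CPM need not have, so that rate may not hold here. In wild-type library 26, 5 genes of groups 10 to 13 were high. Hoxc10 was at 215 CPM against 3.83 to 23.8 in the other wild-type libraries, and Hoxc11 at 14.5 against 0.986 to 2.27. Hoxd10 was at 42.4 against 2.85 to 7.50, Hoxd11 at 45.1 against 1.13 to 4.44 and Hoxd13 at 41.1 against 5.40 to 9.94. The genes share a library, so these sets are not independent. In wild-type library 33, Hoxc6 was low at 20.7 CPM against 93.8 to 97.4. In FCSPG library 13, Hoxd9 was high at 47.9 CPM against 25.4 to 26.8.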

How the results depend on the processing

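The 3 medians over the tested Hox genes kept their sign under every alternative run, but with the visceral endoderm score the FCSPG median was close to 0. Adding each library's visceral endoderm score to the fit moved the FCSPG median to -0.031 and the FCPG median to -0.26, and Hoxc10 and Hoxd11 in FCPG turned to 0.27 and 0.94. Below 0 were then 19 of 36 Hox genes in FCSPG and 23 of 36 in FCPG. In either mutant 0 had an unadjusted p under 0.05 (edgeR). In that fit the score and the genotype overlap strongly, and the cause was not tested. With embryo sex as a covariate the median was -1.03 in FCPG and -0.77 in FCSPG. At an unadjusted p under 0.05 (edgeR), 1 Hox gene was then lower in FCPG and 4 in FCSPG. The share of all genes at that level is not given for the fits with a covariate, so these counts lack a background. All wild-type libraries were female, so sex and genotype overlap in part. Adjusted p under 0.05 was reached by 0 Hox genes in each comparison, by 2 in FCPG and 1 in FCSPG with DESeq2, and by 1 in FCPG (Hoxa2) among female libraries, where FCPG is 1 library assumed to vary like the other groups. With DESeq2, 1444 of all genes were called in FCPG and 45 in FCSPG, with no filter on low counts 403 in FCPG, and with female libraries 144. Leaving out each library in turn gave 0 to 8 Hox genes called in FCPG (8 without FCPG library 19, with 2736 genes called in all), 0 in FCSPG, and 0 to 6 between the mutants (6 without FCPG library 19). The medians then ran from -2.82 to -1.16, from -1.61 to -0.73 and from 0.25 to 1.72. For the 8 genes with the smallest p in each comparison, 2 of the values under alternatives changed sign and 8 became called. The other 382 kept both sign and side of the threshold. Genes outside that count also changed sign. With the visceral endoderm score, Hoxd10 in FCPG went from -2.20 to 1.25, Hoxd13 from -2.06 to 0.74 and Hoxa10 from -0.46 to 1.08. No paired analysis was possible because the column names carry no replicate number.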

Other observations

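The 4 cluster spans also hold 47 other annotated genes, mostly noncoding, of which 23 were tested. Their log2 fold change was below 0 for 19 of 23 in FCPG (median -1.54) and for 19 of 23 in FCSPG (median -0.70). The 13 tested protein-coding genes that flank the clusters had medians of -0.20 and -0.074. Because the use of strand in counting is not stated, reads of the noncoding genes cannot be told apart from those of Hox genes they overlap. Hoxb5os was at 159.8, 176, 108 and 28.2 CPM in wild type, 18.4, 0.0591 and 5.04 in FCPG and 9.27, 62.2, 149 and 1.96 in FCSPG. All FCPG libraries lay below wild type for it, and 2 of 4 FCSPG libraries did. Evx1, which lies beyond Hoxa13, was at 86.5, 85.7, 66.1 and 112 CPM in wild type, 77.5, 30.2 and 85.9 in FCPG and 119, 91.3, 47.7 and 42.9 in FCSPG, and the groups overlapped.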
